A study of Mus musculus with 16 samples.

Results

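Distal regions of open chromatin that kept a peak in every library of the series are described here. Accessibility was mapped by omni-ATAC, in which a transposase inserts sequencing adapters into exposed DNA, in mouse embryonic stem cells (ESCs), as 16 libraries from cells on their way to anterior neural progenitor cells (antNPCs). The libraries form 8 groups of 2. They are Tet1 KO cells given the tankyrase inhibitor XAV939 (XAV, 5 µM) on day 3, KO and Tet1 catalytic mutant (MUT) cells on day 3, WT cells given the GSK3 inhibitor CHIR99021 (CHIR, 3 µM) on day 3, untreated WT cells on day 3, and KO, MUT and WT cells on day 2. Every group had bFGF in the medium. Compounds were added from day 2, and the labels list no group with vehicle alone. KO cells came from a pair of male lines with a Tet1 loss-of-function allele. These lines were used on both days and with XAV. MUT cells were a pair of clones edited from 1 WT line, and CHIR-treated WT cells came from lines other than the untreated WT pair, so that line and CHIR cannot be told apart. How closely the untreated WT pair is related to the line that gave the MUT clones, which was 1 of the CHIR-treated pair, is not given in the labels.

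A consensus region was made wherever windows of 150 bp on each side of a peak summit, drawn from the 50000 strongest intervals of each library, met in at least 2 libraries. There were 80585 such regions. Members were chosen by having a midpoint 3 to 100 kb from the nearest annotated transcription start site (TSS, GENCODE M21, mm10) and a kept interval in all 16 libraries. Of 45634 distal regions, 8760 (19.2%) met the rule, which is 10.9% of all regions and 32.4% of those open in every library. The other 36874 distal regions were open in some libraries, and 18089 regions within 3 kb of a TSS were open in every library. Because being open in each library decided membership, the number of libraries and the presence of a peak are not findings about these regions.

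Accessible DNA away from promoters is where sequence-specific proteins keep nucleosomes aside. It comprises enhancers, whose occupancy changes as cells differentiate, and insulator sites bound by CTCF, a zinc finger protein that halts cohesin and thereby anchors chromatin loops. CTCF sites are known for being occupied in many cell types, whereas enhancers follow the factors of each cell type, such as OCT4 and SOX2 in pluripotent cells, TEAD and AP-1 factors in many dividing cells, and TCF/LEF factors when beta-catenin is active.

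CTCF sequences were frequent in these regions, and more so than in other regions. A match to the CTCF consensus with at most 1 mismatch, in the 300 bp at a region's midpoint and on either strand, was present in 2765 of 8760 members (31.6%). With other rules for the intervals kept, given below, it was 26% and 26.7%. The share was 16.4% in distal regions open in some libraries, 10.3% in promoter regions open in every library and 16.2% in all consensus regions. With no mismatch allowed, 11.7% of members, 4.88% of the other distal regions and 2.44% of the promoter regions had a match. How CTCF ranks among the 22 factor families searched depends on this allowance, since SOX (18.1%) and AP-1 (11.9%), searched as exact words, were in more members than CTCF without mismatch. The 6 members with a CTCF match free of mismatches and the highest fold enrichment follow, with the matched bases in capitals, read 5′ to 3′ along the strand of the match (RefSeq GRCm38 sequence, mm10 coordinates). They are shown as examples of the sequence counted here, with their flanks.
Btbd10 member, chr7:113378090-113378150, plus strand: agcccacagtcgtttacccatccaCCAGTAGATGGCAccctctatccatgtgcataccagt
Phactr1 member, chr13:42609138-42609198, plus strand: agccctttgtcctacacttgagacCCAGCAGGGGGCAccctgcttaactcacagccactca
Gm31371 member, chr8:19979920-19979980, plus strand: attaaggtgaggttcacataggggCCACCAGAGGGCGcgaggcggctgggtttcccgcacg
Prdm13 member, chr4:21696063-21696123, minus strand: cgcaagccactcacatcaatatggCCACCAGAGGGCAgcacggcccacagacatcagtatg
member with no protein-coding gene within 100 kb, chr15:52458998-52459058, minus strand: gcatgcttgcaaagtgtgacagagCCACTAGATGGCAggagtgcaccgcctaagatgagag
Pgm2 member, chr5:64070176-64070236, plus strand: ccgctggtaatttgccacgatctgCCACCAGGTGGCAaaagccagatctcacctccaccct

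Fold enrichment, the ratio of the signal at a summit to the local background that the authors deposited with each peak, was high at these 6 regions in every library. It was 9.1 to 20.7 (median 16.2) near Btbd10, 9.35 to 21 (median 16.5) near Phactr1, 13.7 to 18.1 (median 16.1) near Gm31371, and 11.7 to 19.4 (median 16.3) near Prdm13, a gene of neural development. The region with no gene nearby ranged over 11.4 to 18.2 (median 16), and the Pgm2 region over 10.2 to 18.7 (median 15.8). These regions were taken from the top of the ranked list, so their high levels follow from the choice.

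The share with a CTCF sequence was 8.87% of the 8764 distal regions open in 2 libraries, 19.7% to 22.1% of those open in 7 to 14, 27% of the 2470 open in 15, and 31.6% of members. AP-1 (TGANTCA, the site of the FOS and JUN proteins) was present in 12.6% to 17.4% of the regions open in 2 to 15 libraries, with 15% at 2, and in 11.9% of members. TEAD (ACATTCC) was present in 6.33% to 8.23% of the regions open in 2 to 15 libraries, with no steady course, and in 4.98% of members. These are counts of regions that share the same 16 libraries, so no p is attached.

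**Figure D1:**
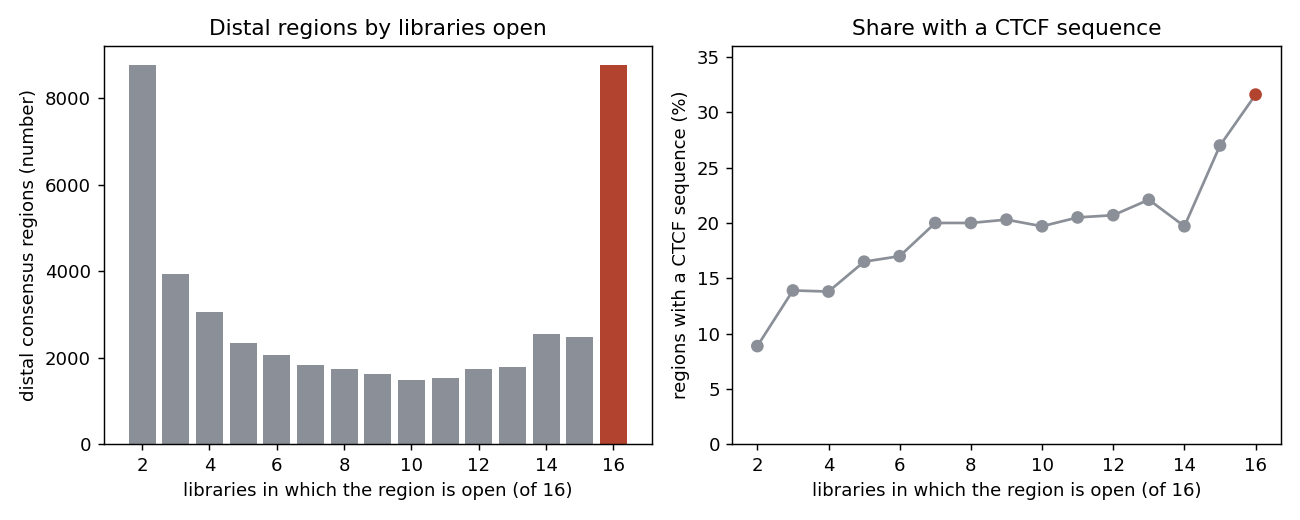
Left, the number of distal consensus regions (y axis) open in 2 to 16 of the 16 libraries (x axis), with members in red. Right, the percentage of each of these sets with a CTCF sequence (at most 1 mismatch in 300 bp), which is 8.87% for regions open in 2 libraries and 31.6% for the 8760 members.

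In bins of median fold enrichment, too, members had the larger CTCF share. Members were divided into 10 bins of equal size by their median fold enrichment, and the other distal regions were placed in the same bins. For other regions the median covers only libraries with a deposited peak. By the rule, each of them lacks a kept interval in at least 1 library, also in the high bins. The bins thus do not match levels library by library, and the difference is not independent of the rule. In the lowest bin (2.31 to 6.44) 27.5% of members and 16.1% of 26059 other distal regions had a CTCF sequence. In the fifth (8.43 to 8.97) it was 38.8% of members and 11.9% of 841 others, and in the highest (12.3 to 35.7) it was 16% of members and 2.46% of 203 others. Members had the larger share in each of the 10 bins. Among members themselves, the CTCF share was between 32.2% and 38.8% from bin 2 to bin 8 and smallest in the highest bin, where NFY (CCAATCA, a promoter and enhancer factor) reached 10.7% against 5.72% of all members, and OCT-SOX sequences 2.97% against 1.22%.

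Summits stood close to the CTCF sequences. The median summit over the 16 libraries was within 30 bp of the centre of the match in 57.6% of the 2765 members and within 60 bp in 85.6%, with a median distance of 25.5 bp. In the other distal regions with a match the median distance was 23 bp. Along the strand of the CTCF match, the median summit was 3′ of its centre in 1648 members (59.6%) and 5′ in 1108 (40.1%), with a median offset of 9 bp toward the 3′ side. The summits of 1 member spread over a median of 47 bp across libraries where a CTCF sequence was present, 53 bp where it was not, and 70 bp in promoter regions open in every library. The match lay on the plus strand in 1386 members and on the minus strand in 1379. Of 2744 neighbouring pairs of such members on a chromosome, 713 (26%) pointed toward each other, 715 (26.1%) pointed away and 1316 (48%) pointed the same way, at a median spacing of 317 kb. No set of loops was used here, so neighbours are neighbours along the chromosome only.

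**Figure D2:**
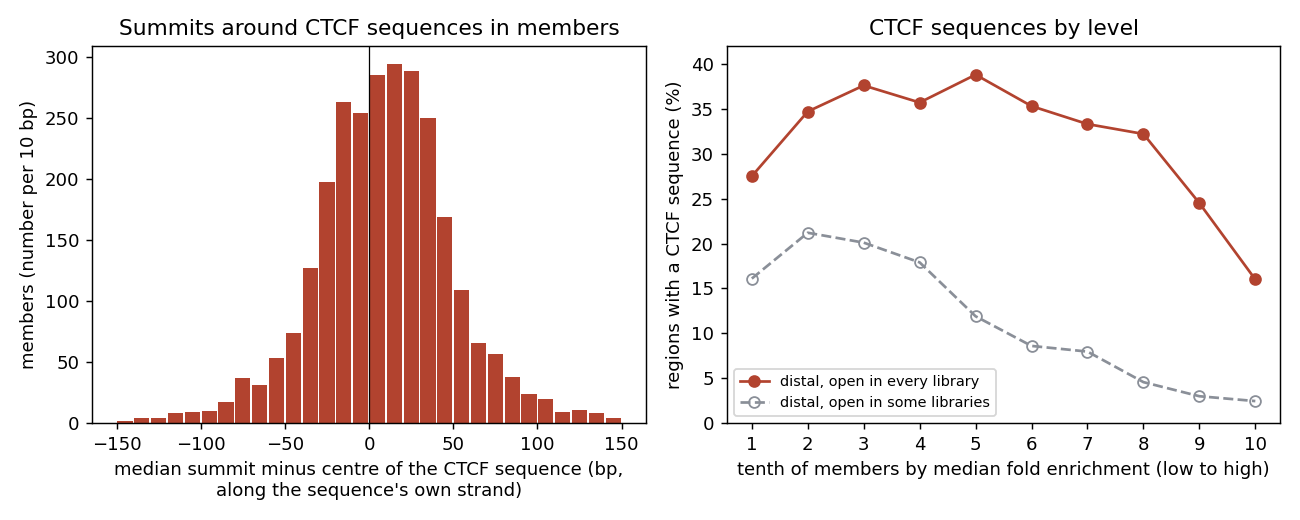
Left, members with a CTCF sequence (y axis, number per 10 bp) by the position of their median summit relative to the centre of the match (x axis, bp along the strand of the match); 1648 lie to the right of 0 and 1108 to the left. Right, the percentage of regions with a CTCF sequence (y axis) in members (filled, red) and in other distal regions (open, grey) in the same bins of median fold enrichment (x axis, 10 bins of members, low to high); members lie above in each bin.

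Beyond CTCF, members had more of the sequences of promoter factors and fewer of those of cell type factors than other distal regions. The families were searched as exact words on both strands: OCT ATGCAAAT, SOX ACAANGG, KLF/SP GGGCGGGG, NFY CCAATCA, AP-1 TGANTCA, ETS CCGGAAGT, NRF1 GCGCATGCG, YY1 AAGATGGCG, ZNF143 ACTACANTT, ESRRB TCAAGGTCA, GRHL AACCNGTT, TEAD ACATTCC, TCF/LEF CTTTGAT, ZIC CCTGCTGNG, E-box CACGTG, T-box AGGTGTGA, forkhead TGTTTAC, and AGATAAG for the GATA factors. The CTCF, REST, RFX and OCT-SOX consensus sequences are longer and are given by name, and OCT is the end of OCT-SOX. KLF/SP, bound by GC-box factors, was in 9.59% of members, 4.46% of other distal regions and 31.8% of promoter regions open in every library. NRF1, a factor of housekeeping promoters, was in 0.331%, 0.0895% and 2.29% of the same sets. REST, the repressor of neuronal genes outside neurons, was in 115 members (1.31%), 0.58% of other distal regions and 0.569% of promoter regions. It was thus, like CTCF, more frequent in members than in either comparison set.

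Families of cell type factors were less frequent in members than in other distal regions. TEAD had a match in 4.98% of members against 7.29%, TCF/LEF in 4.67% against 6.55%, GATA in 2.96% against 4.31%, T-box in 1.75% against 2.65%, and AP-1 in 11.9% against 15.3%. SOX (18.1% against 19.5%) and OCT (3.16% against 3.3%) differed less. In all, 3911 members (44.6%) had no CTCF sequence and at least 1 of the other families, and 2084 (23.8%) had none of the 22.

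**Figure D3:**
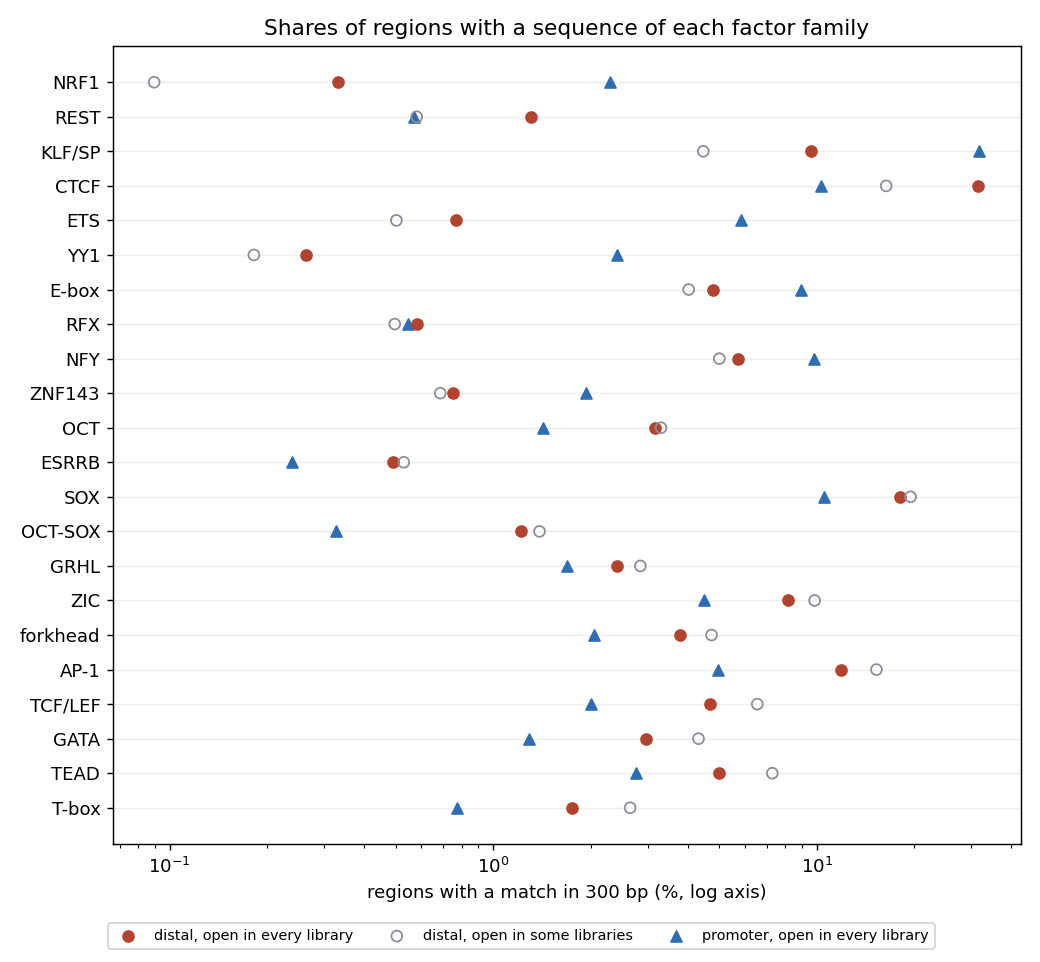
Percentage of regions with a match to each factor family in 300 bp (x axis, log scale) for distal regions open in every library (red, 8760), distal regions open in some libraries (open grey circles, 36874) and promoter regions open in every library (blue triangles, 18089). Families (y axis) run from the highest ratio of members to other distal regions at the top (NRF1, then REST, KLF/SP and CTCF) to the lowest (T-box).

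For the other families, the member with the highest fold enrichment is shown for each of the 6 held by most members, then 1 each for REST and OCT-SOX, which were added after their shares had been seen. The matched bases are in capitals.
SOX, Abcb11 member, chr2:69355681-69355735, minus strand: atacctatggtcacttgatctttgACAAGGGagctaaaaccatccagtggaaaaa
AP-1, member with no protein-coding gene within 100 kb, chr7:131697048-131697102, plus strand: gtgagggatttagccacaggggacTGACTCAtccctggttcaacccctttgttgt
KLF/SP, St6galnac3 member, chr3:153149065-153149120, minus strand: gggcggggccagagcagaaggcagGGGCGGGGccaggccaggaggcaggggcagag
ZIC, member with no protein-coding gene within 100 kb, chr13:3037154-3037210, plus strand: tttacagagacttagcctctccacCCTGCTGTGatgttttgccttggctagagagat
NFY, Zfp960 member, chr17:17004943-17004997, plus strand: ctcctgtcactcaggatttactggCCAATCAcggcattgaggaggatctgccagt
TEAD, member with no protein-coding gene within 100 kb, chr10:98008520-98008574, minus strand: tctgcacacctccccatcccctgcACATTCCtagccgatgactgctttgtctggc
REST, Tunar member, chr12:105322436-105322502, minus strand: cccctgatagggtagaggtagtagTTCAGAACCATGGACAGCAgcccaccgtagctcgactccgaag
OCT-SOX, Thap1 member, chr8:26255170-26255232, minus strand: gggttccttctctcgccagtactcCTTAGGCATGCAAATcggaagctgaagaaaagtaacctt
The REST and OCT-SOX matches each carry 2 mismatches to their consensus, the most allowed for these long sequences. The St6galnac3 member repeats the GC box in its flank. The Abcb11, chromosome 13 and Zfp960 members are not unique in the genome. Of 7 consecutive stretches of 40 bases, 5, 4 and 2 of theirs were found more than once in the assembly. Of the 261 stretches in the Abcb11 window, 90 were identical to mitochondrial DNA. Whether factors bind the sequences shown was not tested, and copies of the other members shown here were not counted.

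Members were richer in G and C than other distal regions. Their median GC content was 54% (50.7% in other distal regions, 64% in promoter regions open in every library), and the median number of CpG in 300 bp was 5 (3 and 22). At least 15 CpG were present in 910 members (10.4%), in 2.22% of other distal regions and in 71.3% of the promoter regions. Among all 8-letter words held by at least 2% of members, the 10 with the highest ratio to other distal regions were rich in G and C, and 0 of the 10 lay within the CTCF consensus. The first was CCGCCGCC, in 2.13% of members, 0.586% of other distal regions and 15.1% of promoter regions, followed by CGCCCCGC (2.47%, 0.784% and 15.9%). Bases masked as repeats made up 9.9% of members and 13.9% of other distal regions. By annotation, 4512 members (51.5%) were intergenic, 3670 (41.9%) intronic and 578 (6.6%) exonic, against 47.4%, 47.9% and 4.7% of other distal regions. Members lay at a median of 11855 bp from a TSS, against 14090.5 bp for other distal regions.

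Members were spread over the genome. Their share of a chromosome's distal regions was 16.5% on the X chromosome, 17% on chromosome 10 and 22.4% on chromosome 4, and 8 of 21 distal regions on the Y chromosome. Most stood alone: 6724 members (76.8%) had no neighbour within the joining distance usual for super-enhancers, and 158 clusters held 3 or more. The 2 largest, of 8 members each, lay at the ends of the sex chromosomes, around Mid1 and Gm21887 (chrX:169991146-170019994) and around Gm21860 (chrY:90718499-90744775), where the X and Y chromosomes share sequence. A cluster of 6 covered 27663 bp at Igf2bp3, an RNA-binding protein gene, and another 6 lay between Trim27 and Gpx5.

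By the nearest protein-coding TSS within 100 kb, members were assigned to 5211 genes, 44.3% of the 11751 genes with any distal region, and 880 members had no such gene. A single member fell to 3505 genes. Cacna1a, a neuronal calcium channel subunit, had the most, 12 of its 25 distal regions, 4 of them with a CTCF sequence and 6 intronic. Gse1 had 11 of 37, all intronic, and Ank3, Cstad, Pknox2 and Rapgef1 had 9 each. Casz1, Dlgap1, Gm21860 and Pde4d were among the genes with 8. Casz1, a zinc finger factor, had 0 members with a CTCF sequence, and Pde4d, a cAMP phosphodiesterase, had 5 of 8.

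Genes of pluripotency and of the germ layers had members alike. Of the genes in each list with a distal region, 12 of 15 of core and formative pluripotency had a member (22 members, 4 of them at Etv5), 8 of 11 of naive pluripotency (3 each at Esrrb and Klf4), 14 of 23 of the neuroectoderm (4 each at Pou3f2 and Sox1), 12 of 17 of primitive streak and mesoderm (3 each at Cdx2 and Hand1) and 5 of 7 of definitive endoderm (2 each at Foxa2 and Gata4). In signalling, 13 of 22 Wnt pathway genes (5 members at Sp8, 4 at Lef1, 3 each at Tcf7 and Tcf7l1) and 8 of 12 Nodal and TGF-beta genes (3 at Ski) had one. For TET and DNMT genes it was 3 of 6, for architectural factors and cohesin 5 of 10, for housekeeping genes 5 of 9, and for fibroblast genes 5 of 11. Over all genes with a distal region the share was 44.3%. Lists differ in gene length and in the space around their genes, which was not adjusted for.

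The median member stood at percentile 61.1 to 69.8 of fold enrichment among the regions open in each library. The rule ranked intervals by −log10 p, so it set no bound on the fold enrichment of members but is not independent of it. Their median fold enrichment was 7 to 9.86 over libraries (7 in KO replicate 2 on day 3, 9.86 in WT replicate 2 on day 2), against 5.14 to 8.46 for other distal regions where these had a kept interval and 7.64 to 9.36 for promoter regions open in every library. Members with a CTCF sequence had a median of 6.77 to 9.62 and the others 7.17 to 10.1. Just outside the rule, 2470 distal regions were open in 15 libraries. CHIR replicates 1 and 2 were the missing library in 583 (23.6%) and 454 (18.4%) of them, KO replicate 2 on day 3 in 226 (9.15%) and each of the others in 36 to 209. In all but 10 of the 2470 the missing library had a deposited peak, with a −log10 p at a median of 0.87 times that of the library's 50000th interval. For members, the library with the lowest such ratio had a median of 1.48. At the distance bounds, the nearest member lay 3002 bp from a TSS and the nearest region under the bound 2998 bp, and the farthest member 99228 bp.

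The 10 members with the highest median rank over libraries were led by regions that are not unique in the genome. The member near Abcb11 (chr2:69355447-69355750), a liver bile salt transporter gene, was first in level. Its fold enrichment was 38.6 and 37.3 in XAV-treated KO, 39.1 and 34.5 in KO, 35.4 and 35.5 in MUT, 38 and 39.7 in CHIR-treated WT and 38.6 and 37.7 in WT cells on day 3, and 32.5 and 35.8 in KO, 32 and 31.9 in MUT and 31.8 and 32.3 in WT cells on day 2. Of the 261 stretches of 40 bases in its window, 90 were identical to mitochondrial DNA. The same held for 125 stretches of the member at chr5:60042815-60043137 (23.9 to 30.3, median 27.2) and 221 of the member at chr12:97061400-97061823 (22.8 to 27.9, median 25.9). In all, 5 of 8760 members, 2 of 36874 other distal regions and 8 of 18089 promoter regions shared such a stretch, and 4 of the 5 members had a median fold enrichment of 19.3 or more. Nuclear copies of mitochondrial DNA can draw reads from mitochondria, and the part of such reads in these levels was not tested.

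Copies in the nuclear genome were also found among the 10. Each of the 7 consecutive stretches of 40 bases of the Gnb1l member (chr16:18533108-18533413, 24.5 to 31.9, median 29.6) was found more than once in the assembly, up to 23675 times. The members near Spice1 (chr16:44357920-44358245, 11.9 to 27.1, median 20.5) and at chr10:11491990-11492303 (15.6 to 28.4, median 22.1) had 0 of 7. The chromosome 10 region was the only one of the 10 with a CTCF sequence and had 24 CpG in 300 bp. The member at chr13:3037064-3037396 stood apart in 1 group: its fold enrichment was 13.6 and 13.8 in CHIR-treated WT cells and 22.5 to 25.9 in the other 14 libraries. The 5 lowest members all lay in the clusters at the ends of the X and Y chromosomes, with medians of 2.31 to 3.46.

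Levels of members varied little between libraries, and less than those of other distal regions. After quantile scaling of log2 fold enrichment over the 56528 regions with a peak in all 16 libraries, the standard deviation over the 16 libraries had a median of 0.188 in members (0.16 within groups), 0.311 in the 19150 other distal regions that could be scaled (0.239 within groups), and 0.158 in promoter regions open in every library (0.143). Members with a CTCF sequence had a median of 0.186 and those without 0.189. The upper tails differed more, with a 95th percentile of 0.267 in members with a CTCF sequence and 0.309 in the rest. Keeping a peak in each library limits how far a region can vary, so this difference from other distal regions is not independent of the rule. Accessibility was measured in bulk, so fewer cells with a region open and less opening per cell cannot be told apart.

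Few of these regions were called between KO and WT cells on day 3, with 2 libraries per group. By limma on the scaled log2 fold enrichment, with all 56528 regions tested and p adjusted by Benjamini-Hochberg, 17 members (0.194%) were higher in KO than in WT cells and 43 (0.491%) were lower. Over all regions tested 0.446% were higher and 0.895% were lower, and among other distal regions 165 and 308 of 19150. A CTCF sequence was present in 1 of the 17 and 4 of the 43, against 31.6% of members. Among the other distal regions called, it was in 5.45% of those higher and 5.52% of those lower, against 16.4% of all other distal regions. The low share among called regions was thus not particular to members. The counts leaned on single libraries. Without KO replicate 1 they were 8 higher and 62 lower, without KO replicate 2, which had the lowest −log10 p at the 50000th interval (6.84), 8 and 6, without WT replicate 1, 3 and 5, and without WT replicate 2, 3 and 11. With only regions open in every library tested, the counts were 5 and 14. The median difference of members was 0.00, with a 5th to 95th percentile of -0.37 to 0.34. At an unadjusted p under 0.05 in limma there were 955 members (10.9%), against 12.9% of all regions tested. Membership required a strong peak in both KO and WT libraries, so the small number of calls is not independent of the rule.

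The member with the largest gain in KO cells lay 7175 bp from Olfr960, an olfactory receptor gene (chr9:39630117-39630443). Its fold enrichment was 20 and 12.9 in KO cells, against 6.92 and 6.67 in WT cells, a log2 difference of 1.33 ± 0.16 (SE, limma adjusted p = 0.00152). It was 12.2 and 10.7 in MUT and 19.1 and 18 in CHIR-treated WT cells. The WT libraries were the lowest of the day. On day 2 its fold enrichment was 16 and 10.5 in KO and 11 and 10.5 in WT cells. WT values were thus lower on day 3 than on day 2. A member in a gene-free stretch of chromosome 1 (chr1:110337454-110337818) had 19.1 and 10.4 in KO cells, against 6.92 and 7 in WT cells (log2 difference 1.12 ± 0.18, limma adjusted p = 0.00674). An intronic member of Btbd11, a BTB domain protein gene (chr10:85510385-85510870), had 10 and 8.04 in KO cells, against 5.57 and 4.47 in WT cells (0.97 ± 0.16, limma adjusted p = 0.00905). On day 2 the chromosome 1 member had 10.1 and 10.2 in WT cells, and that of Btbd11 6.37 and 6.22. In KO cells on day 2 they had 15.4 and 10.2, and 6.62 and 5.68. The next 7 had log2 differences of 0.67 to 0.71. They included a member 40442 bp from Zfp281, a zinc finger gene of pluripotent cells, with 9.78 and 8.1 in KO cells, against 6.76 and 5.24 in WT cells. An Ank3 intron, in the ankyrin-G gene, held the 1 member of the 17 with a CTCF sequence, with 15.5 and 12.8 in KO cells, against 9.35 and 9.33 in WT cells. Another lay in an intron of Runx1, a factor of blood development, with 12.8 and 10.8 in KO cells, against 9.46 and 6.62 in WT cells. Under 10 alternative settings the Olfr960 call held in each (limma adjusted p up to 0.0263), that on chromosome 1 in 9 and that of Btbd11 in 8. Those of Zfp281 (5 of 10, up to 0.219), Ank3 (4 of 10, up to 0.24) and Runx1 (4 of 10, up to 0.239) were each lost when any 1 of the 4 libraries was left out.

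The largest loss of accessibility in KO cells was near Efnb2. Near this gene, which encodes a membrane-bound ligand of Eph receptors (chr8:8572301-8572638, 66894 bp from its TSS), fold enrichment was 5.4 and 4.83 in KO cells, against 13.7 and 9.79 in WT cells (log2 difference -1.05 ± 0.20, limma adjusted p = 0.0173). The member near Cyp4b1, a cytochrome P450 gene (chr4:115657339-115657691), had 7.4 and 5.4 in KO cells, against 13.8 and 12.7 in WT cells (-0.92 ± 0.12, limma adjusted p = 0.0024). Near Pcdh18, a protocadherin gene (chr3:49769359-49769704), it was 7.73 and 6.83 in KO cells, against 16 and 13.3 in WT cells (-0.88 ± 0.13, limma adjusted p = 0.00398). Members named here were chosen among those whose KO and WT values were apart. MUT values, which the choice did not use, were 8.35 and 11.8 near Efnb2, 10.5 and 9.45 near Cyp4b1 and 11.8 and 13.9 near Pcdh18. Near Efnb2, KO cells were already at 8.82 and 6.19 on day 2, against 13.4 and 13.6 in WT cells. The log2 differences of KO against WT on day 2 were -0.77 there, -0.16 near Cyp4b1 and -0.08 near Pcdh18, none of them called. Introns of Pak1, a kinase that acts on the cytoskeleton, and Cacna2d1, a calcium channel subunit, held further members lower in KO cells on day 3. Pak1 had 8.08 and 4.98 in KO cells, against 13 and 13.5 in WT cells, and Cacna2d1 10.9 and 6.12, against 17.6 and 15.7. In an intron of Fgf10, a fibroblast growth factor gene, the values were 7.08 and 5.04 in KO cells, against 14.2 and 10.3 in WT cells (-0.88 ± 0.19, limma adjusted p = 0.0298). Of these, the calls near Cyp4b1 and Pcdh18 held under each of 10 alternative settings (adjusted p up to 0.0491), while that at Fgf10 held under 4 of 10 (0.017 to 0.218) and that near Efnb2 under 8 of 10 (0.0112 to 0.155).

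**Figure D4:**
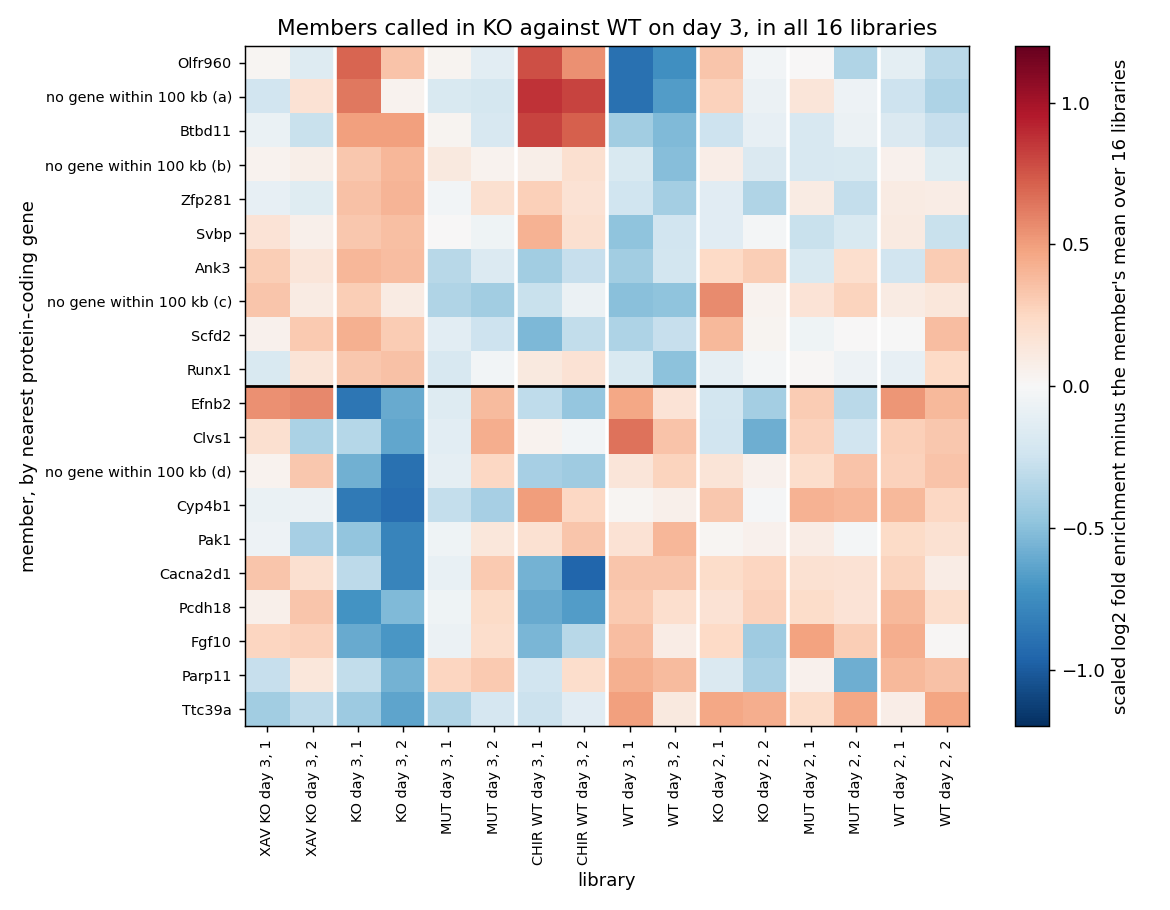
Scaled log2 fold enrichment (colour, minus the member's mean over the 16 libraries) of the 10 members with the largest gain (above the line) and the 10 with the largest loss (below it) in KO against WT cells on day 3, named by nearest gene (y axis), in the 16 libraries (x axis). The members were chosen by the KO and WT columns of day 3, so only the other columns carry new values. Rows differ in these columns. Efnb2 is red in both XAV columns and Ttc39a blue, while Olfr960 is red in both CHIR columns and Ank3 blue.

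The authors' deposited table of differentially accessible regions (DARs), made from these same KO and WT libraries of day 3, met few members. Of 1077 open-in-KO DARs, 16 lay at members (17 members, 0.194%), and of 920 close-in-KO DARs, 70 (71 members, 0.811%). In other distal regions 1.89% and 1.36% overlapped a DAR of these lists. Of all 80585 consensus regions, 926 and 849 did. Membership required a strong peak in both KO and WT libraries, so the small overlap is not independent of the rule. A CTCF sequence was present in 0 of the 17 and 4 of the 71 (5.63%). Members at open-in-KO DARs included those near Olfr960, in Hunk, near Apela, which encodes a peptide ligand of the apelin receptor, and near Dact1, a modulator of Wnt signalling. In Hunk, KO cells of day 3 had 10.9 and 11, against 10.7 and 9.92 in WT cells. KO and WT values overlapped near Apela (15.8 and 10.8, against 11.1 and 8.72) and near Dact1 (12.1 and 12.2, against 7.18 and 12.4). Members at close-in-KO DARs with the highest rank lay near Dpt, in Astn2 and in Cacna2d1.

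No member was called between MUT and WT cells on day 3 or day 2, or between KO and WT cells on day 2. In limma, the numbers of members called higher and lower were 0 and 0 in each of the 3 comparisons, with 456, 267 and 317 members at an unadjusted p under 0.05 (5.21%, 3.05% and 3.62% of members). Of all regions tested, the shares at such a p were 5.83%, 3.61% and 4.64%. Over all regions tested, 0% were called in either direction between MUT and WT on day 3 and on day 2, and 0.00177% in each direction between KO and WT on day 2. The middle 90% of member log2 differences ran from -0.29 to 0.28 for MUT on day 3, from -0.26 to 0.25 for MUT on day 2 and from -0.27 to 0.25 for KO on day 2. Whether the KO effect differed between days was tested as KO minus WT on day 3 minus the same on day 2, a test added after the other results were seen. It called 0 members in limma (440 at an unadjusted p under 0.05) and 0% of all regions. The share of all regions at that unadjusted p was not counted for this test. KO and MUT were not compared with each other.

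CHIR-treated WT cells differed from WT cells at more members than any other comparison of 1 day. In CHIR-treated cells 167 members (1.91%) were higher and 412 (4.7%) lower, while 3.33% of all regions tested were higher and 5.94% lower. With median centring in place of quantile scaling the counts were 281 higher and 372 lower. A CTCF sequence was present in 35 of the 167 (21%) and 44 of the 412 (10.7%). Among other distal regions called, it was in 9.91% of those higher and 6.59% of those lower. Put the other way, 1.27% of members with a CTCF sequence were higher and 1.59% lower, against 2.2% and 6.14% of members without one. Of the 107 members with an OCT-SOX sequence, 19 (17.8%) were lower, as were 50 of 436 with TEAD (11.5%) and 26 of 212 with GRHL (12.3%). Calls were counted only for the families named in this paragraph, not for every family searched. Among those counted, OCT-SOX, TEAD and GRHL had the highest shares that were lower. For SOX and NFY it was 6.19% each, for AP-1 5.58%, for TCF/LEF 4.89% and for KLF/SP 2.26%. Of the members that were lower, 4.61% had OCT-SOX, 12.1% TEAD and 6.31% GRHL. Of the other distal regions that were lower, it was 3.73%, 12.8% and 3.97%. TCF/LEF sequences were in 10.2% of the members that were higher, 4.85% of those lower and 4.67% of all. In other distal regions it was 12.4% of those higher, 3.49% of those lower and 6.55% of all. Leaving out CHIR replicate 1 gave 48 higher and 198 lower, CHIR replicate 2, 66 and 266, WT replicate 1, 74 and 189, and WT replicate 2, 86 and 256. The comparison uses the same WT libraries as that of KO cells and other cell lines on each side.

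Among the 4 largest gains with CHIR were 3 members named above. The chromosome 1 member at chr1:110337454-110337818 had a fold enrichment of 21.3 and 20.9 in CHIR-treated cells, against 6.92 and 7 in WT cells (log2 difference 1.62 ± 0.18, limma adjusted p = 2.16e-05), the Olfr960 member 19.1 and 18, against 6.92 and 6.67 (1.48 ± 0.16, limma adjusted p = 2.23e-05), and the Btbd11 member 11.6 and 11.8, against 5.57 and 4.47 (1.24 ± 0.16, limma adjusted p = 0.000112). The third in size, in another gene-free stretch (chr1:71923775-71924101), had 18.2 and 20.6, against 10 and 7 in WT cells (1.25 ± 0.19, limma adjusted p = 0.00033). Because the WT libraries are shared, the KO and CHIR values of these members are not separate evidence. Others lay near Dpyd, an enzyme of pyrimidine breakdown, with 17.4 and 20.4 in CHIR-treated cells, against 10.4 and 7.67 in WT cells, and near Pik3r1, a regulatory subunit of PI3 kinase, with 12.8 and 14.8, against 6.58 and 6.67.

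The largest loss with CHIR was in a stretch with no protein-coding gene nearby. A member 148127 bp from the nearest protein-coding TSS (chr10:19208110-19208703) had 7.47 and 6.36 in CHIR-treated cells, against 21.5 and 18.3 in WT cells (log2 difference -1.44 ± 0.13, limma adjusted p = 3.62e-06). In an intron of Edem3, a gene of protein degradation in the endoplasmic reticulum, it was 5.85 and 7.1, against 18.3 and 12.5 in WT cells (-1.16 ± 0.18, limma adjusted p = 0.000446). In Lypd6, a modulator of Wnt and nicotinic receptor signalling, it was 5.87 and 6.73, against 14.9 and 14.1 (-1.12 ± 0.12, limma adjusted p = 1.66e-05). Near Plxna4, a semaphorin receptor gene, it was 5.85 and 8.6, against 17.2 and 14.8, and near Bmper, which encodes a secreted BMP modulator, 4.89 and 4.43, against 11.5 and 9.73. Of the 10 largest losses, 4 had a SOX sequence, 2 TEAD and 0 CTCF.

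Of the 161 members at genes of the lists, 8 (4.97%) were called with CHIR, against 6.61% of all members and 9.28% of all regions tested, which is no result about the lists. Tcf7l1, the Wnt pathway repressor of the TCF family, had a member (chr6:72794874-72795254) with 7.19 and 8.14 in CHIR-treated cells, against 14.9 and 12.7 in WT cells (log2 difference -0.79 ± 0.14, limma adjusted p = 0.00151). Sall4, a pluripotency factor, had 7.15 and 7.38, against 12.6 and 12.9 (-0.74 ± 0.13), and Six3, a forebrain factor, 7.84 and 7.29, against 14.1 and 11.4 (-0.69 ± 0.12). A member near Hand1 (-0.54 ± 0.16) and a pair of adjoining members 80580 and 80229 bp from Smad2 (-0.66 ± 0.16 and -0.61 ± 0.18), whose values were equal in the 14 libraries without CHIR, were also lower. Members near Pou3f1 (0.66 ± 0.20) and in Gata4 (0.63 ± 0.19) were higher, with adjusted p of 0.049 and 0.045 in limma. The other members of these genes did not pass the test.

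XAV treatment of KO cells raised more members than it lowered. In XAV-treated KO cells 73 members (0.833%) were higher and 7 (0.0799%) lower, while 1.2% of all regions were higher and 0.49% lower. Efnb2 led, with a fold enrichment of 14 and 14.5 in XAV-treated KO cells, against 5.4 and 4.83 in KO cells (log2 difference 1.30 ± 0.20, limma adjusted p = 0.0043). An intronic member of Nhsl2 had 15.1 and 13.8, against 6.76 and 5.04 in KO cells (1.12 ± 0.16, limma adjusted p = 0.00308), and one of Kif26b, a kinesin gene, 16.1 and 18.7, against 10.3 and 5.76 (0.98 ± 0.19, limma adjusted p = 0.0163). A member of Btbd11 other than the one above (chr10:85592039-85592366) had 10.9 and 13.8, against 6.44 and 4.68 (0.97 ± 0.14, limma adjusted p = 0.00338). The first Btbd11 member was lower, with 6.98 and 6.13 in XAV-treated KO cells, against 10 and 8.04 in KO cells (-0.67 ± 0.16, limma adjusted p = 0.0443), as was that near Apela, with 8.9 and 10, against 15.8 and 10.8 (-0.65 ± 0.14, limma adjusted p = 0.0217). The call of the first Btbd11 member held under 3 of 10 alternative settings (limma adjusted p up to 0.29) and was lost with line as a replicate block and without any 1 library, and that near Apela held under 5 of 10 (up to 0.188). This comparison shares the KO libraries with that of KO and WT. Its counts were 6 higher and 2 lower without XAV replicate 1, 9 and 0 without XAV replicate 2, 145 and 6 without KO replicate 1, and 15 and 1 without KO replicate 2.

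**Figure D5:**
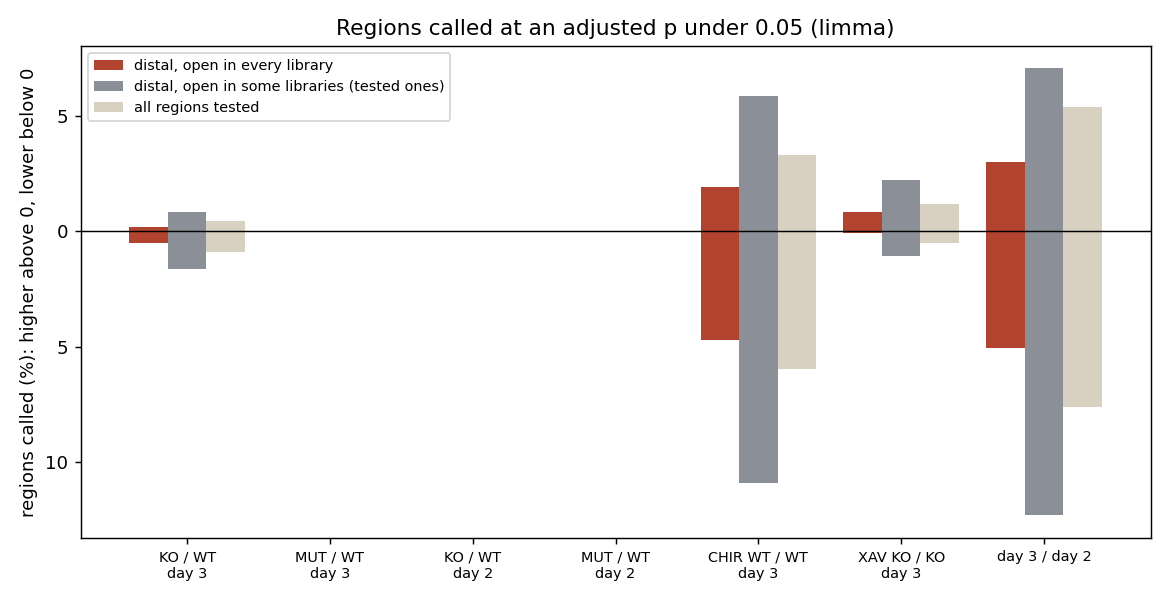
Percentage of regions called by limma at an adjusted p under 0.05 (y axis, higher above 0 and lower below 0) in 7 comparisons (x axis), for distal regions open in every library (red, 8760), the tested distal regions open in some libraries (grey, 19150) and all regions tested (beige, 56528). Members had the smallest share wherever bars are drawn, for instance 4.7% lower with CHIR against 5.94% of all regions, but they were selected for a strong peak in all 16 libraries, so this is not independent of the rule.

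Between days, 265 members (3.03%) were higher on day 3 than on day 2 and 443 (5.06%) lower over the untreated KO, MUT and WT cells, while 5.41% of all regions tested were higher and 7.61% lower. With median centring, 280 were higher and 305 lower. A CTCF sequence was present in 75 of the 265 (28.3%) and 75 of the 443 (16.9%), and an AP-1 sequence in 20.8% of those higher and 11.1% of those lower, against 11.9% of all members. Among other distal regions called, CTCF was in 9.31% of those higher and 10.7% of those lower, and AP-1 in 34.3% and 9.9%. Values of the day 3 and day 2 libraries were fully apart in 99 and 117 of these members. The same was not counted for other regions, so this is no result about members. Without WT replicate 1 of day 2 the counts were 146 and 269, without MUT replicate 1 of day 3, 133 and 278, without WT replicate 2 of day 3, 143 and 273, and without MUT replicate 1 or 2 of day 2, 151 and 281 or 162 and 281.

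The second Btbd11 member fell most between days. Its fold enrichment on day 3 was 6.44 and 4.68 in KO, 6.46 and 5.79 in MUT and 8.65 and 7.33 in WT cells, against 14 and 11.1 in KO, 9.99 and 11.8 in MUT and 13.2 and 14.3 in WT cells on day 2 (log2 difference -0.87 ± 0.08, limma adjusted p = 2.13e-05). The highest day 3 value was below the lowest of day 2. A member near Pcmtd1 had 6.47 to 11 on day 3, against 13 to 17.4 on day 2 (-0.82 ± 0.08, limma adjusted p = 3.38e-05). Near Mtss1, a gene of membrane curvature and actin, it was 7.5 to 11.6 on day 3, against 5.47 to 8.21 on day 2 (0.69 ± 0.09, limma adjusted p = 0.000114), and near Irs2, an adaptor of the insulin receptor, 7.64 to 10.3, against 5.13 to 8.19 (0.63 ± 0.10, limma adjusted p = 0.000629). Of the 161 members at listed genes, 11 (6.83%) were called between days, against 8.08% of all members. Lin28b (-0.61 ± 0.11), Snai1 (-0.40 ± 0.09), Foxa2 (-0.33 ± 0.10), Tet2 (-0.32 ± 0.08) and both members of Bmp4 (-0.62 ± 0.10 and -0.29 ± 0.09) were lower on day 3, and members near Pax6 (0.38 ± 0.10), Foxd3 (0.33 ± 0.10), Lef1 (0.32 ± 0.09), Actb (0.30 ± 0.10) and Yy1 (0.27 ± 0.08) were higher. The last 2 are a housekeeping gene and a zinc finger architectural factor. Adjusted p ranged from 0.000496 to 0.0472 in limma.

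In the 7 comparisons of groups and days together, 1237 members (14.1%) were called in at least 1, against 6255 of the 19150 other distal regions tested (32.7%) and 20.6% of all regions tested. The other 7523 members (85.9%) were called in none, and membership itself required a strong peak on both sides of each comparison. A CTCF sequence was present in 33.7% of these and in 18.6% of the 1237 called in at least 1.

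The libraries differed in the strength of their lists, with 135359 to 219047 distinct intervals and a −log10 p of 6.84 to 21.8 at the 50000th. An intronic Tet1 region (chr10:62884128-62884462) was open in 0 of the 6 libraries of KO lines and in all 10 others. Promoters of Sox2, Utf1, Dnmt3b and Sox1 were open in all 16 libraries and that of Pou5f1 in 15, Otx2 in 5 and Pou3f1 and Zic2 in 0. Promoters of 5 primitive streak genes (T, Eomes, Mixl1, Foxa2 and Gsc) and of 3 fibroblast genes (Col1a1, Col1a2 and Twist2) were open in 13 to 16 libraries, Cdx2 in 16 and Elf5 in 10, so that an open promoter does not set these cell types apart here.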

How the data were processed

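The authors made the files with the ENCODE ATAC-seq pipeline on mm10, calling peaks per library at p 0.01, with aligner and caller versions not given in the sources used here. With every deposited peak came its summit, a fold enrichment (a ratio to local background), and −log10 p and −log10 q values. The authors also deposited coordinates of DARs, called by them with DiffBind 3.0.15. No read counts were used, so depth is unknown, and the number of peaks and their −log10 p stand in for it.

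The distinct intervals of each library were ranked by the authors' −log10 p and the first 50000 kept. Levels were the highest fold enrichment of any deposited peak overlapping a region, on a log2 scale with no pseudocount, quantile scaled. limma 3.58.1 (R 4.3.3) with trend was fitted to 56528 regions with a value in each library, 8760 members among them, with 8 groups in 1 model. Sequences of 300 bp were read from RefSeq GRCm38 with Python, and the fits and motif search were tested on simulated data.

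Replicates are separate lines, and KO, MUT and WT lines recur between groups. Deviations of the same line correlated at 0.318 (KO, days), 0.00298 and 0.00724 (KO with XAV), -0.0237 (MUT) and 0.0784 (WT), and line was used as a block in an alternative. P-values rest on the spread within groups of 2 lines, pooled over the 8 groups and moderated over all regions tested. The KO, MUT and untreated WT lines enter this spread more than once, and the main comparison of days does not pair them. Alternatives changed the intervals kept, overlap, consensus, distance, mismatches, scaling, value, trend and libraries. Named members were those with the highest (10) and lowest (5) median rank, the largest log2 differences among called members whose groups were apart (10 or 5 per direction), those at DARs with the highest rank, and called members of listed genes. The members, lists and motifs were chosen with earlier results of these data known. A withheld item among the named members is not reported here.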

Additional observations from a re-analysis of the deposited data

How the results depend on the processing

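The number of distal regions open in every library moved with the rule: 3420 with the 30000 strongest intervals, 24004 with each interval of −log10 q of at least 2, and 5003 from 10 kb outward. An overlap of 150 bp (8752) or a consensus of 8 libraries (8626) moved it little, and leaving out 1 library gave 8800 to 9338. The CTCF share was 26% with 30000 intervals, 26.7% with the −log10 q bound, 27.9% in 150 bp, 11.7% with 0 and 54.6% with 2 mismatches, and 30.7% to 31.8% without 1 library.

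Calls among members depended on the setting. With −log10 p in place of fold enrichment, KO against WT on day 3 gave 79 higher and 104 lower, CHIR 316 and 676, XAV 154 and 63, day 3 against day 2 404 and 916, MUT on day 3 1 lower and KO on day 2 1 higher. With only regions open in every library tested, fewer regions enter the scaling and the adjustment: KO on day 3 gave 5 and 14, XAV 45 and 0, and days 131 higher. Without trend it was 7 and 14 for KO on day 3, 26 and 3 for XAV and 286 lower for days. Median centring gave 281 higher for CHIR and 11 lower for XAV, and summits within the region 12 lower for XAV. The cause was not tested. Leaving out 1 library gave 3 to 8 higher and 5 to 62 lower for KO on day 3, 48 to 86 and 189 to 266 for CHIR, 6 to 145 and 0 to 6 for XAV, 133 to 288 and 269 to 580 for days, 0 and 0 to 2 for the difference of KO between days, and 0 in the comparisons of MUT on either day and of KO on day 2; the lone library of a group is then assumed to vary like the rest. With line as a replicate block the counts were 17 and 41 for KO on day 3, 174 and 415 for CHIR, 94 and 9 for XAV and 267 and 412 for days, so that pairing moved no count by over 1.5 times. Of 60 named differences, 32 were called under each alternative and 0 reversed. Without read depth, small differences in weak regions cannot be judged.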
